A study of Mus musculus with 36 samples.

Results

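Fibroblasts reprogrammed for 2 days while carrying a lentivirus that expresses Cdh1 were compared with fibroblasts reprogrammed for 2 days with an empty virus, by sequencing of polyadenylated RNA. The comparison takes 4 of the 36 libraries of the series, 2 for each virus, chosen by their labels alone. Mouse embryonic fibroblasts (MEFs, E13.5) were homozygous for a cassette of Oct4, Klf4, Sox2 and c-Myc at Col1a1 and heterozygous at Rosa26 for the reverse tetracycline transactivator that switches it on with doxycycline. All 4 libraries came from cells given doxycycline and the solvent DMSO for 2 days on irradiated feeder MEFs, in a medium with leukemia inhibitory factor. 2 further pairs of groups, with the same genotype and viruses, are used beside it. One pair received SGC0946, an inhibitor of the histone methyltransferase DOT1L, in place of DMSO for the same 2 days, and the other was MEFs whose label names the virus and no doxycycline. V6.5 embryonic stem cells (ESCs), depleted of feeders 24 hours before harvest, gave the reference for stem cell transcripts. Each group has 2 libraries, and the labels do not say that they came from separate cultures, so a p-value here speaks only of how far these libraries vary, and that variation may be technical. The promoter that drives Cdh1 in the virus, the share of cells infected and the number of feeder cells are not given in the sources used here.

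E-cadherin, the protein of Cdh1, joins neighbouring epithelial cells through its outer domains and is tied to actin inside the cell by beta-catenin and alpha-catenin. Fibroblasts lack it and use other cadherins. Gain of E-cadherin belongs to the mesenchymal-to-epithelial transition, in which reprogramming fibroblasts switch on epithelial genes, and the protein can also hold beta-catenin at the membrane, away from its nuclear targets. The comparison therefore asks which transcripts differ at an early stage when Cdh1 is supplied from outside.

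The empty-virus libraries held 24.9 and 27.8 M expected counts and the Cdh1-virus libraries 30.7 and 32.1 M. Levels are given in counts scaled to library size (CPM) for each library, or as mean ± SD (n = 2), and changes as log2 fold change ± SE with the adjusted p of edgeR's quasi-likelihood test. Fibroblast transcripts were abundant with either virus: Col1a1, a collagen chain, was at 2439 ± 16.2 CPM with the empty virus and 2536 ± 34.1 CPM with the Cdh1 virus. None of 25 fibroblast matrix genes passed the test. Transcripts of stem cells and of leukocytes were lower in the Cdh1-virus libraries, and both are described with their values below. For MEFs with the Cdh1 virus, replicate 2 carries a source label that names day 2 cells. Its title and treatment name MEFs, and its Pou5f1 level of 0.774 CPM was below those of the other MEF libraries (1.01 to 1.22 CPM) and far below the day 2 levels of 115 to 122 CPM.

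Cdh1 itself was at 4.96 and 5.44 CPM with the empty virus and at 123 and 119 CPM with the Cdh1 virus, and the 2 pairs lay far apart. The increase was 23.2-fold (log2 4.54 ± 0.12, adjusted p = 1.57e-13) in counts that cannot separate the viral copy from the endogenous gene. The level with the virus was 16.4% of the mean in ESCs, where Cdh1 stood at 703 and 771 CPM. In MEFs Cdh1 was at 0.412 and 0.486 CPM with the empty virus and at 171 and 179 CPM with the Cdh1 virus. The empty-virus libraries of day 2 lay above those of MEFs, and the gain with the Cdh1 virus was smaller in log2 terms at day 2 than in MEFs (difference -4.05 ± 0.30, adjusted p = 1.51e-06). Both values rest on the empty-virus baseline, which holds a trace of stem cell transcripts described below. With each library's estimated ESC share subtracted, 45.2% and 28.5% of the Cdh1 counts of the empty-virus libraries were removed, and the increase became 36.1-fold (log2 5.17 ± 0.15) and the difference from MEFs -3.42 ± 0.38 (adjusted p = 8.06e-04).

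**Figure D1:**
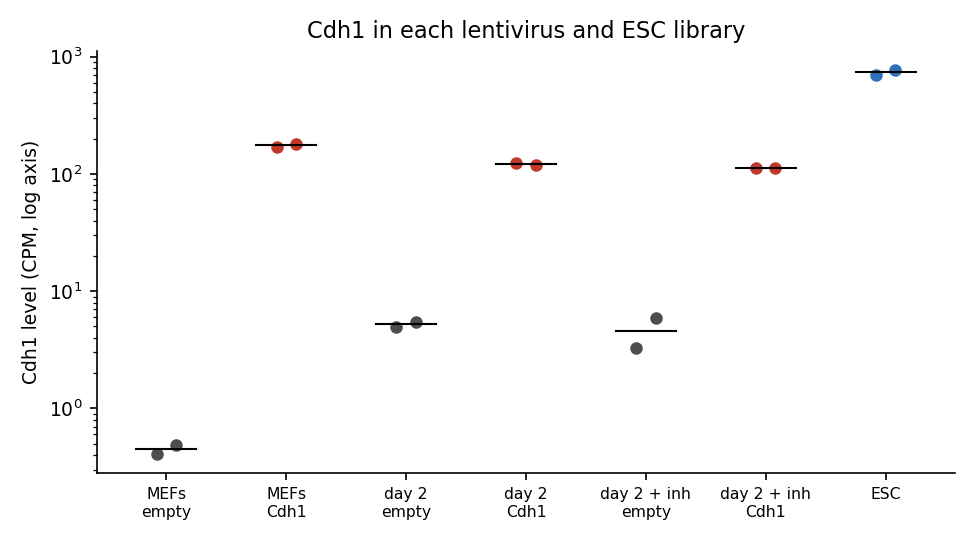
Level of Cdh1 in CPM on a log axis in each lentivirus and ESC library. Points are libraries, bars the mean of 2, "inh" is SGC0946, grey the empty virus, red the Cdh1 virus and blue ESCs. The day 2 libraries with the Cdh1 virus lie at 119 and 123 CPM, between the empty virus (4.96 and 5.44 CPM) and ESCs (703 and 771 CPM).

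Few other transcripts passed the test. Of 15044 genes tested, 135 passed an adjusted p of 0.05 (0.897%), of which 22 were higher with the Cdh1 virus (0.146%) and 113 lower (0.751%). An unadjusted p under 0.05 was reached by 1430 genes. With 15044 tests many genes reach it without any difference, so that number is no count of missed effects. The calls need not hold every difference either. The median change over all genes was 0.00 on the log2 scale, with quartiles of -0.09 and 0.08. Only Cdh1 rose by 2-fold or more, whereas 57 called genes were lower by at least that much. Of the 113 lower genes, 65 are on a broad list of leukocyte genes, drawn up after the calls had been seen, and 11 are ESC-specific genes. The remaining 37 were lower by 0.24 to 3.83 log2, with a median of -0.41. The calls rest on both libraries of each group: leaving out any 1 of the 4 left between 63 and 74 called genes. The lowest count followed the removal of Cdh1-virus replicate 2, and the other 3 removals, of Cdh1-virus replicate 1 and of empty-virus replicates 1 and 2, gave 66, 65 and 74.

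**Figure D2:**
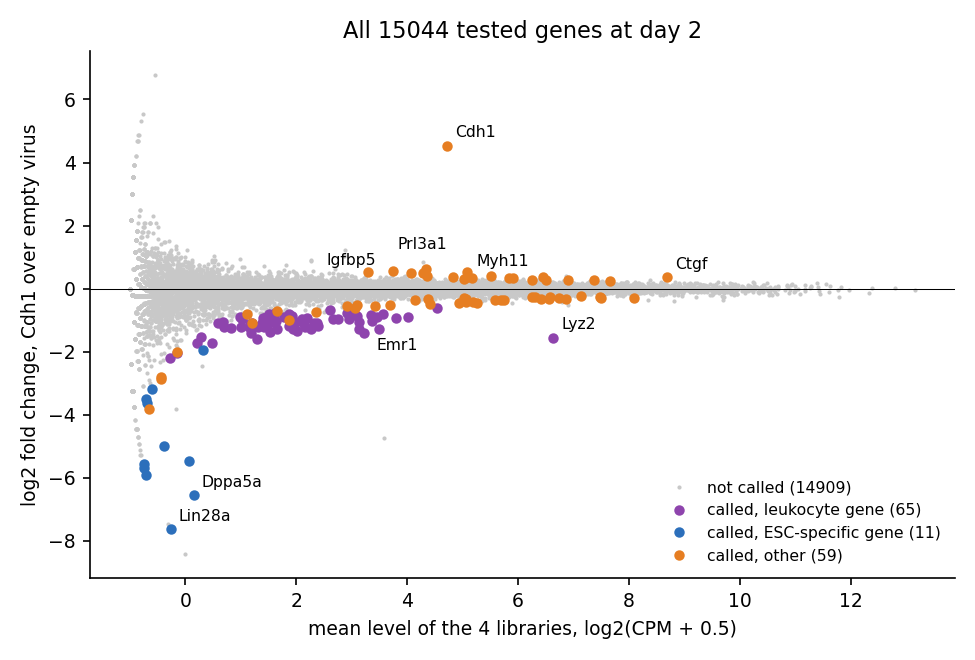
Each tested gene at day 2, with the mean level of the 4 libraries as log2(CPM + 0.5) against the log2 fold change of the Cdh1 virus over the empty virus. Purple points are called leukocyte genes (65), blue points called ESC-specific genes (11), orange points other called genes (59) and grey points genes not called. Cdh1 stands alone at 4.54, and of the 57 called genes below -1, 40 are leukocyte and 11 ESC-specific genes.

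Genes of cell junctions were compared next. The cadherins of fibroblasts did not pass the test: Cdh2 (N-cadherin) was at 173 and 178 CPM with the empty virus against 186 and 174 CPM, a change of 0.03 ± 0.06, and Cdh11 was at 394 and 398 against 412 and 369 CPM, a change of -0.02 ± 0.06. The libraries of both viruses overlap for Cdh2 and Cdh11 alike, and Cdh1 was the only one of 11 tested cadherins to pass. Among the catenins and their partners at the adherens junction 0 of 19 passed, with changes from -0.19 to 0.12 and a median of 0.01. Ctnnb1, which encodes beta-catenin, had levels of 928 and 922 CPM with the empty virus and 869 and 859 CPM with the Cdh1 virus (log2 -0.10 ± 0.07, adjusted p = 0.72). Of 20 genes for the turnover of E-cadherin 0 passed (median 0.05).

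Other epithelial genes did not pass as higher. Of 16 tight junction genes 0 passed, with changes from -4.93 to 2.18 and a median of -0.62. Their summed level was 340 and 338 CPM with the empty virus and 336 and 333 CPM with the Cdh1 virus. The median thus reflects members with few counts more than the level of the list. Epcam, an epithelial adhesion protein, had 19 counts in each empty-virus library and 4 and 7 in the Cdh1-virus libraries (log2 -2.02 ± 0.49, adjusted p = 0.061), and Cldn4, a claudin of the tight junction, had 7 and 7 counts against 0 and 2. Both genes are strongly expressed in ESCs, at 286 and 86.1 CPM. Whether these few counts belong to the stem cell transcripts described below was not tested. Of 12 simple keratin and desmosome genes 0 passed (median -0.04), with Krt19 at 31.8 ± 0.377 CPM against 30.5 ± 0.163 CPM. Of 17 epithelial regulators Cdh1 rose and 1 gene was lower: Esrp1, an epithelial splicing factor at 94 CPM in ESCs, had 9 and 3 counts with the empty virus and none in either library with the Cdh1 virus. The call for Esrp1 rests on these few counts and was lost without empty-virus replicate 1 (adjusted p = 0.42), Cdh1-virus replicate 1 (0.25) or Cdh1-virus replicate 2 (0.28). It was also lost with DESeq2 (adjusted p = 0.054), with limma on log2(TPM + 1) (-0.17 ± 0.08, adjusted p = 0.53) and with the ESC share subtracted (adjusted p = 0.62). In fits without the ESC libraries Esrp1 did not reach the minimum count and was not tested.

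The transcription factors that drive the opposite, epithelial-to-mesenchymal transition passed in 0 of 14 cases, with a median of -0.02. Zeb1, a repressor of Cdh1, changed by 0.10 ± 0.07 and Snai2, another repressor, by -0.03 ± 0.09. The smallest adjusted p on that list belonged to Twist1, at 63.2 and 65.5 CPM with the empty virus and 54.4 and 55.3 CPM with the Cdh1 virus (log2 -0.23 ± 0.06, adjusted p = 0.082). Targets of beta-catenin and its TCF partners passed in 0 of 21 cases, with a median of -0.06. Axin2, a feedback inhibitor of the Wnt pathway, was at 3.32 and 3.06 CPM against 2.34 and 2.64 CPM (log2 -0.35 ± 0.15, adjusted p = 0.44), and Ccnd1, which encodes cyclin D1, changed by -0.06 ± 0.06. In simulated counts modelled on this comparison the test found 88% of genes changed 1.5-fold and 18% of genes changed 1.2-fold. Small shifts in these lists were thus mostly not detectable. The changed genes were drawn only from genes well above the minimum count, so these rates do not cover genes with few counts.

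None of the 4 factors of the cassette passed the test. Pou5f1, which encodes Oct4, was at 115 and 120 CPM with the empty virus and 117 and 122 CPM with the Cdh1 virus, a change of 0.02 ± 0.06. Sox2 was at 94.7 and 80.3 CPM against 81.5 and 83.6 CPM, Klf4 at 183 and 181 against 182 and 188 CPM, and Myc at 265 and 267 against 259 and 262 CPM. The groups overlap for Pou5f1, Sox2 and Klf4 but not for Myc, as for 42.5% of all genes tested, and the smallest of the 4 adjusted p was 0.88. Dot1l changed by -0.06 ± 0.07. Genes of DNA replication (0 of 17 called, median -0.12) and mitosis (0 of 17, median -0.11) held no gene past the test. Their smallest adjusted p was 0.072 and 0.17. Only 2 of the 17 replication genes and 0 of the 17 mitosis genes changed upward. The summed level of replication genes was 1671 and 1685 CPM with the empty virus and 1562 and 1540 CPM with the Cdh1 virus. For mitosis genes it was 1757 and 1786 CPM against 1669 and 1635 CPM.

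The increases beside Cdh1 were small, from 0.23 to 0.61 log2 in 21 genes. Prl3a1, a member of the prolactin family, was at 16.6 and 15.6 CPM with the empty virus and 26.6 and 22.4 CPM with the Cdh1 virus (log2 0.61 ± 0.11, adjusted p = 0.0034). Igfbp5, a secreted protein that binds insulin-like growth factors, was at 10.6 and 10.9 CPM against 16.1 and 15.3 CPM (0.55 ± 0.08, adjusted p = 2.75e-04). For both genes the 2 Cdh1-virus libraries lie wholly above the others, which the rule that chose these genes required. The same held for 21.3% of all genes tested. Igfbp5 passed under every alternative run, with changes between 0.46 and 0.58, whereas Prl3a1 lost its call without empty-virus replicate 2 (adjusted p = 0.10) or Cdh1-virus replicate 1 (0.15), and with limma on TPM (0.16).

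Genes linked to actin and to the YAP pathway, which reads cell contact and tension, held several of the increases. Myh11, the smooth muscle myosin heavy chain, was at 28.9 and 26.2 CPM with the empty virus and 41.0 and 38.6 CPM with the Cdh1 virus (0.53 ± 0.08, adjusted p = 6.70e-04). Ctgf, a matricellular protein and YAP target, was at 358 and 369 CPM against 453 and 479 CPM (0.36 ± 0.06, adjusted p = 0.0014). Ankrd1, another YAP target, was at 27.4 and 31.1 CPM against 39.3 and 37.1 CPM (0.38 ± 0.09, adjusted p = 0.026). These were 2 of 19 YAP targets (Ctgf and Ankrd1) and 1 of 16 contractile genes (Myh11), beside 0.146% of all genes called higher. In lists this short 1 call already exceeds that share. The list medians were 0.08 and 0.09. Other well known members did not pass: Cyr61 changed by 0.06 ± 0.06, Acta2, smooth muscle actin, by 0.03 ± 0.06 and Tagln, transgelin, by 0.11 ± 0.07. The call of Myh11 was lost without empty-virus replicate 2 (adjusted p = 0.051), that of Ctgf without Cdh1-virus replicate 2 (adjusted p = 0.060), and that of Ankrd1 without empty-virus replicate 1 (0.43), Cdh1-virus replicate 1 (0.30) or Cdh1-virus replicate 2 (0.098).

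Among the other named increases, Trib3 and Ptgs2 were the only genes of their lists called higher. Lrp2, Coch, Acot2 and Sepx1 were on no list and were named for the size of their increase. Trib3, a pseudokinase of the amino acid stress response, was at 16.9 and 15.2 CPM with the empty virus and 23.2 and 21.8 CPM with the Cdh1 virus (0.49 ± 0.10, adjusted p = 0.0086), as 1 of 15 stress and unfolded protein genes. Of the 15 genes 13 changed upward, with a median of 0.13. Atf4, the factor that acts above Trib3, changed by 0.17 ± 0.06 and did not pass. Ppp1r15a (0.33 ± 0.07, adjusted p = 0.011) and Sel1l (0.23 ± 0.06, adjusted p = 0.048), which are not on that list, were also called higher. Ptgs2, the inducible cyclooxygenase of prostaglandin synthesis, was at 76.7 and 76.1 CPM against 102 and 93.0 CPM (0.36 ± 0.07, adjusted p = 0.013). Lrp2 (megalin), an endocytic receptor, rose by 0.41 ± 0.08 (adjusted p = 0.0068). Coch (0.53 ± 0.12), the acyl-CoA thioesterase gene Acot2 (0.49 ± 0.11) and the methionine sulfoxide reductase gene Sepx1 (0.41 ± 0.10) passed with adjusted p of 0.030, 0.027 and 0.045. The calls of Trib3, Ptgs2, Lrp2, Coch, Acot2 and Sepx1 depended on single libraries and on the method. Without empty-virus replicate 2 or Cdh1-virus replicate 1 the adjusted p was 0.24 or 0.15 for Trib3 and 0.20 or 0.13 for Lrp2, and without empty-virus replicate 1, replicate 2 or Cdh1-virus replicate 1 it was 0.14, 0.14 or 0.30 for Ptgs2. Coch lost the call without any 1 of the 4 libraries (0.087 to 0.40), Acot2 without either empty-virus library or Cdh1-virus replicate 2 (0.15, 0.32 and 0.58) and Sepx1 without empty-virus replicate 1 or either Cdh1-virus library (0.63, 0.12 and 0.40). With limma on log2(TPM + 1) none of the 6 passed, nor did Ankrd1. DESeq2 did not call Coch (adjusted p = 0.15), Acot2 (0.051) or Ankrd1 (0.079). An edgeR fit of the 4 libraries alone did not call Acot2 (adjusted p = 0.075) or Sepx1 (0.30). All 6 kept a positive change under every alternative.

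Secreted inflammatory factors also held small decreases. Il1rn, the interleukin-1 receptor antagonist, was at 198 and 200 CPM with the empty virus and 167 and 161 CPM with the Cdh1 virus (-0.28 ± 0.06, adjusted p = 0.019), and Ccl2, a monocyte chemokine, was at 83.8 and 82.6 CPM against 71.6 and 66.2 CPM (-0.27 ± 0.07, adjusted p = 0.042). With Ptgs2 they were 3 called of 19 genes on that list (2 lower and 1 higher), beside 0.897% of all genes in either direction, and the list's median was -0.08. Both decreases lost the call with limma on log2(TPM + 1) and when any 1 of the 4 libraries was left out, with adjusted p from 0.11 to 0.29 for Il1rn and from 0.096 to 0.48 for Ccl2.

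The decreases were led by genes of macrophages and other leukocytes. Many such genes are read by PU.1 (Sfpi1 in these files), a factor of the ETS family that binds purine-rich sites with the core GGAA. To show what that means in sequence, 3 promoters of genes that fell are given 5' to 3', as the 250 bases before the transcription start in RefSeq (GRCm38.p6), with AGGAAGT or its reverse complement in capitals.
Lyz2 (chr10:117282273-117282522, minus strand): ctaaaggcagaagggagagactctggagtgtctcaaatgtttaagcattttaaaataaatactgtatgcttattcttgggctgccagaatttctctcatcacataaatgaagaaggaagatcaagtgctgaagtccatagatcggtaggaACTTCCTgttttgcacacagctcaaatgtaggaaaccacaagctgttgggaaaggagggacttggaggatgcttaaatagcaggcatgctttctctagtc
C1qb (chr4:136886201-136886450, minus strand): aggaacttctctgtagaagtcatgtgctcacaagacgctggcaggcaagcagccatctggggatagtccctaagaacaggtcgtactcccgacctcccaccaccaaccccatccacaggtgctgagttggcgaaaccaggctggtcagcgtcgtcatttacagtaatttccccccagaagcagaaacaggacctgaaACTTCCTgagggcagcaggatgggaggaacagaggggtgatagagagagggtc
Mrc1 (chr2:14229164-14229413, plus strand): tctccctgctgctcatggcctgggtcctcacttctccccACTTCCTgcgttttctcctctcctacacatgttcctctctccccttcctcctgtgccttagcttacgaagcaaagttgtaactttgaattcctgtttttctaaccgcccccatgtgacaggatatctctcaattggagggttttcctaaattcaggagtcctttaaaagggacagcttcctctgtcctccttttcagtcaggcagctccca
The match begins 100 bases before the start of Lyz2, 53 before that of C1qb and 211 before that of Mrc1, each time on the opposite strand. These 3 were chosen because they hold a match. Of the 65 leukocyte genes called lower, 46 had a promoter entry and 13 of those (28.3%) held AGGAAGT on either strand within 250 bases, beside 8.80% of all 27025 genes of the table. A match describes the letters only.

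Lyz2, lysozyme of macrophages and neutrophils, was at 175 and 164 CPM with the empty virus and at 58.3 and 56.9 CPM with the Cdh1 virus. This was a 2.94-fold decrease (log2 -1.56 ± 0.08, adjusted p = 2.34e-11), and both Cdh1-virus libraries lie far below both others. Emr1, which encodes the macrophage surface marker F4/80, was at 14.3 and 14.2 CPM against 5.63 and 5.12 CPM (-1.40 ± 0.10, adjusted p = 8.32e-09). The 3 chains of complement C1q fell together: C1qa by 1.28 ± 0.13, C1qb by 0.90 ± 0.11 and C1qc by 1.27 ± 0.11 on the log2 scale. C1qb, whose promoter is printed above, was at 14.4 and 14.2 CPM against 7.13 and 8.16 CPM. Mrc1, the mannose receptor of tissue macrophages, was at 17.9 and 19.1 CPM against 10.1 and 9.15 CPM (-0.94 ± 0.09). Stab1, a scavenger receptor, fell by 1.03 ± 0.11, Ctss, a lysosomal protease, by 1.07 ± 0.11, the macrophage pore-forming protein gene Mpeg1 by 0.91 ± 0.08 and the metalloprotease gene Adam8 by 0.86 ± 0.11. The rule for named genes picked these 10 as the largest decreases at moderate level without overlap between the groups. They kept their call under all 14 alternatives that tested them.

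Of 14 macrophage and leukocyte markers 11 fell, against 0.751% of all genes, and the median was -0.98. Csf1r, the receptor for the macrophage growth factor, went from 13.0 ± 1.61 to 7.22 ± 0.38 CPM and Ptprc, the pan-leukocyte antigen CD45, from 5.30 ± 0.20 to 2.71 ± 0.54 CPM. Sfpi1 itself had 66 and 73 counts with the empty virus and 29 and 49 with the Cdh1 virus (-1.09 ± 0.21, adjusted p = 0.0069). The 3 markers that did not pass were Cd14 at -0.18 ± 0.14, Cd52 at -0.91 ± 0.43 and Lyz1 at -0.997 ± 0.297. Summed over the list the level was 303 and 297 CPM with the empty virus and 124 and 120 CPM with the Cdh1 virus, and no marker was at 0 in any library. Each list of markers of other cell types had no called gene: skeletal muscle (7 tested), endothelium (8), keratinocytes (5), neural and glial cells (8) and erythroid cells (3). In bulk RNA, fewer leukocytes and less of these transcripts per cell cannot be told apart, nor can leukocytes among the infected cells from those among the feeders. Csf1, the growth factor that macrophages depend on, was at 355 ± 3.06 CPM with the empty virus and 407 ± 5.64 CPM with the Cdh1 virus and did not pass (0.20 ± 0.06, adjusted p = 0.15).

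**Figure D3:**
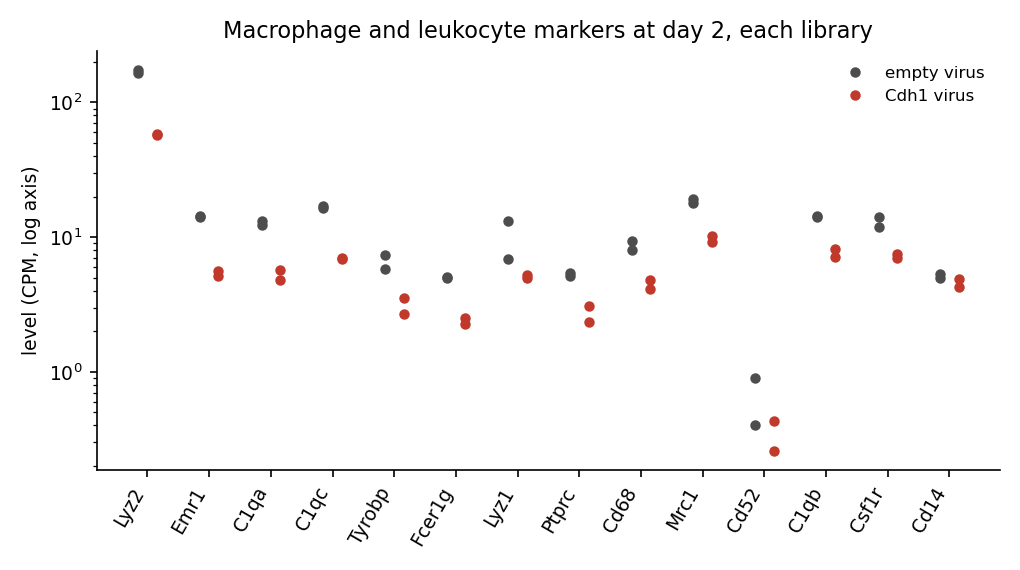
Levels of the 14 macrophage and leukocyte markers at day 2 in CPM on a log axis, 1 point per library, ordered by fold change. Grey is the empty virus and red the Cdh1 virus. For 11 of the 14 both red points lie below both grey points and the decrease passed the test; Lyz1, Cd52 and Cd14 did not pass.

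Stem cell transcripts were the other group that was lower. A set of 39 genes that are abundant in ESCs and absent from the MEFs of the timecourse experiment (at least 30 CPM and at most 0.1 CPM) was used to follow them. The median gene of this set stood at 0.303% and 0.210% of its ESC level in the empty-virus libraries and at 0.0572% and 0.0307% in the Cdh1-virus libraries. In all 4 MEF libraries the median was 0, and with the inhibitor it was 0.259% and 0.388% with the empty virus and 0.0423% and 0.0571% with the Cdh1 virus. The median was above 0 at day 2 and not in MEFs, and all 4 empty-virus libraries of day 2 lay above all 4 Cdh1-virus libraries. The total over the set was 525 and 445 counts against 269 and 282 counts, which shows how few reads carry the difference.

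**Figure D4:**
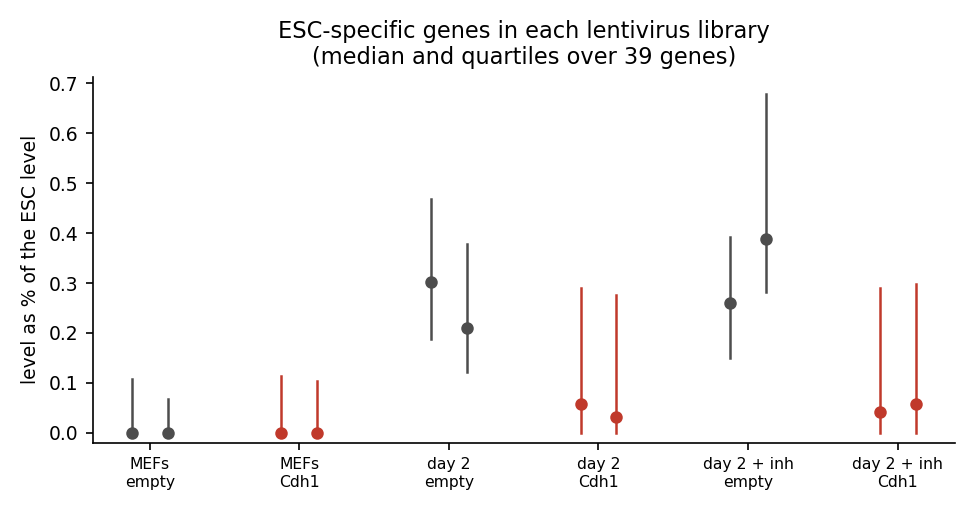
Level of 39 ESC-specific genes in each lentivirus library as a percentage of the level in ESCs. Points are the median gene of a library and lines run from the lower to the upper quartile; grey is the empty virus and red the Cdh1 virus. The day 2 medians are 0.210% to 0.388% with the empty virus and 0.0307% to 0.0572% with the Cdh1 virus.

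Single stem cell genes had very low counts. Dppa5a, an ESC marker at 1350 CPM in ESCs, had 55 and 45 counts with the empty virus and 0 and 1 with the Cdh1 virus. Lin28a, a regulator of let-7 microRNAs, had 27 and 20 counts against none in either library, and Tdgf1, a Nodal co-receptor, had 51 and 33 against 1 and 1. Utf1, a chromatin factor of pluripotent cells, had 21 and 13 counts against 1 and 0, and Zfp42 (Rex1) 8 and 9 against 1 and 1. Dnmt3l, a cofactor of DNA methyltransferases that is not in the set of 39, had 18 and 20 counts against 5 and 6. In each of these genes both Cdh1-virus libraries lie below both empty-virus libraries, as for 21.3% of all genes tested. No fold change is given for these counts. The call of Lin28a was lost without empty-virus replicate 1 (adjusted p = 0.061), that of Dnmt3l without Cdh1-virus replicate 1 (0.070) and that of Utf1 without empty-virus replicate 1 (0.091), Cdh1-virus replicate 1 (0.060) or Cdh1-virus replicate 2 (0.14).

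Of 25 pluripotency genes 9 passed as lower and none as higher, and of 12 ESC-defining markers 6 were lower. The ESC libraries were part of the fit, so genes with few or no counts at day 2 could reach the minimum count. Without the ESC libraries 14016 genes were tested instead of 15044. Both lists may hold genes that were tested only through the ESC libraries. Their shares are therefore not weighed against the 0.751% of all genes called lower. The lists share genes. Tcl1, one of the 12, was at 0 in all 4 libraries. The summed level of the 12 markers was 104 and 87.0 CPM with the empty virus and 83.1 and 85.7 CPM with the Cdh1 virus, of which Sox2, also in the cassette, made up most. Members with more counts at day 2 were less uniform. L1td1, an RNA-binding protein gene of pluripotent cells, was at 8.72 and 8.24 CPM against 5.37 and 6.30 CPM (-0.54 ± 0.11, adjusted p = 0.0079). Fgf4 was at 4.48 and 4.14 CPM against 4.56 and 3.88 CPM, and Tet1, a DNA demethylation enzyme, at 6.96 and 6.26 against 6.28 and 5.90 CPM, neither past the test (adjusted p of 0.99 and 0.80). Nanog had 26 and 30 counts against 22 and 35. When each library's estimated ESC share was subtracted, Dppa5a and Lin28a gave no change to test (log2 0.00 each), which says nothing about them because the share was estimated from a set that holds both. Utf1, also in the set, lost the call, as did Dnmt3l, which is not in it, and 110 of the 135 genes remained called. With the ESC-specific genes set aside, 121 genes were called. Where the trace came from was not tested.

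The same contrast of viruses was available with SGC0946 and in MEFs, from other libraries. With the inhibitor 80 genes passed (0.532%, 20 higher and 60 lower), and in MEFs 171 (1.14%, 92 higher and 79 lower). Of the 113 genes lower at day 2, 46 were also called lower with the inhibitor (40.7% of the day 2 genes and 76.7% of the inhibitor's 60) and 45 were called lower in MEFs (39.8% and 57.0%). Of the 22 higher genes 2 were shared with the inhibitor (9.09% and 10%) and 5 with the MEFs (22.7% and 5.43%). Lyz2 fell in all 3 settings, by 1.56 ± 0.08 at day 2, by 1.15 ± 0.08 with the inhibitor and by 0.74 ± 0.08 in MEFs, where it started from 1128 ± 80.5 CPM. Of the 14 leukocyte markers 11 were called lower in each of the 3 settings, with medians of -0.98 at day 2, -0.71 with the inhibitor and -0.68 in MEFs.

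The increases at day 2 were set beside the same genes in the other settings. Myh11 changed by -0.03 ± 0.08 and Ctgf by -0.05 ± 0.06 with the inhibitor, but by 0.80 ± 0.12 and 0.42 ± 0.06 in MEFs, where both passed. Igfbp5 changed by 0.30 ± 0.08 with the inhibitor (adjusted p = 0.085) and by -0.01 ± 0.06 in MEFs. Whether an effect differed between day 2 with and without the inhibitor was tested directly, and edgeR called 0 genes, with 1126 at an unadjusted p under 0.05; DESeq2 called 17. The adjusted p for Myh11 in that test was 0.23 and for Ctgf 0.23, so their differences between the settings did not pass.

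The day 2 effect differed from that in MEFs for 27 genes (0.179%, 2 higher and 25 lower at day 2), and 6 of these are on the list of interferon response genes. Interferons act through promoter sites called interferon-stimulated response elements, whose core is GAAA, 2 free bases and GAAA again. Of the 6 genes 5 had a promoter entry, and 4 of those held the core on either strand in the 250 bases before the start, beside 10 of 17 genes of the whole list with an entry (58.8%) and 3.46% of all genes. Overlapping matches were counted separately. The 3 shown, with matches in capitals, are those with the largest differences among the 4.
Isg15 (chr4:156200819-156201068, minus strand): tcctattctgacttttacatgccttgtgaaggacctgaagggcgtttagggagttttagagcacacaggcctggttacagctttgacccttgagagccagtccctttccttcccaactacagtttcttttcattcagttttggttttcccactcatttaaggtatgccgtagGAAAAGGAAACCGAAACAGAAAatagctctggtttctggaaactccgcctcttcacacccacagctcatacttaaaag
Ifit1 (chr19:34640639-34640888, plus strand): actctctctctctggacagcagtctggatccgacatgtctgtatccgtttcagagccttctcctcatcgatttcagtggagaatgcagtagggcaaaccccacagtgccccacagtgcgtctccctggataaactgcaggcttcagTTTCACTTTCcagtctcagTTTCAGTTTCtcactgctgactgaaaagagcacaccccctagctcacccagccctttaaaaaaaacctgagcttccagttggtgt
Cxcl10 (chr5:92348890-92349139, minus strand): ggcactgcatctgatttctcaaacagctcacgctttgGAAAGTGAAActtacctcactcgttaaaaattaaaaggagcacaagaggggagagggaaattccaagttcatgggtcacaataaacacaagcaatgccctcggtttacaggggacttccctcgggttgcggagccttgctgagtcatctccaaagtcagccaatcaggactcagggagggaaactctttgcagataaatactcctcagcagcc
Isg15 holds 3 overlapping matches from 78 bases before the start, Ifit1 has 2 (104 and 85 bases) and Cxcl10 has 1 (213 bases).

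Isg15, a ubiquitin-like antiviral protein, was at 2.92 and 3.17 CPM with the empty virus and 2.08 and 2.17 CPM with the Cdh1 virus at day 2, and at 20.8 and 20.4 CPM against 65.2 and 65.1 CPM in MEFs. Ifit1, which binds viral RNA, was at 1.56 and 1.15 CPM against 0.911 and 0.838 CPM at day 2, and at 25.4 and 28.8 CPM against 101 and 94.9 CPM in MEFs. Cxcl10, an interferon-induced chemokine, was at 1.08 and 1.58 CPM against 1.11 and 1.06 CPM at day 2, and at 0.503 and 0.530 CPM against 7.73 and 5.42 CPM in MEFs. In MEFs the libraries with the Cdh1 virus stood above those with the empty virus for all 3 genes, and at day 2 for none. Of the 22 interferon genes 20 rose in MEFs (0.612% of all genes did), and at day 2 0 of 22 passed in either direction, with a median of -0.04. This holds for the list only. Oas1g and Slfn2, which are not on it, were called lower at day 2 (log2 -2.87 ± 0.66 and -1.11 ± 0.21). The summed level of the list was 157.5 and 164.5 CPM with the empty virus and 173 and 165 CPM with the Cdh1 virus at day 2. Without the MEF library whose source label names day 2, 102 genes were called in MEFs and 18 differed from day 2.

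**Figure D5:**
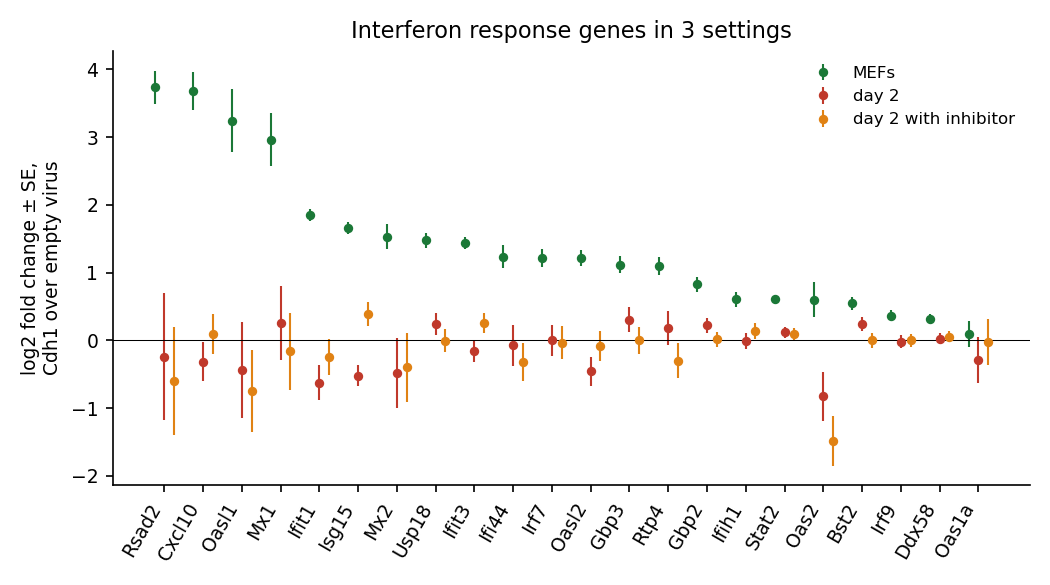
Log2 fold change ± SE of the Cdh1 virus over the empty virus for 22 interferon response genes, ordered by the change in MEFs. Green is MEFs, red day 2 and orange day 2 with SGC0946. In MEFs 20 genes rose, whereas at day 2 no gene passed the test.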

How the data were processed

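RNA of 14 mouse libraries (12 lentivirus, 2 ESC) was used in the tests. The MEF and day 2 control libraries of the timecourse, which are paired-end and spiked, served only to choose ESC-specific genes. The builds mm9 and hg18, Trimmomatic, Bowtie and RSEM 1.2.4 are named in the submitters' processing notes, with no version for the first pair of tools. The deposited expected counts are RSEM estimates, not normalized, in which reads of similar genes are divided by a model. The deposited TPM values are RSEM's, scaled for length and library. Expected counts were rounded and tested with edgeR 4.0.16 (R 4.3.3, quasi-likelihood, robust) with TMM scaling, filterByExpr (minimum count 10, minimum total 15) and 1 coefficient per group over 7 groups, with 7 residual degrees of freedom. Of 20325 genes 15044 were tested, and calls were made at an adjusted p (Benjamini-Hochberg) below 0.05. Depth ran from 18.5 to 35.9 M counts per lentivirus library, and the libraries of a group differed by more than counting noise (chi-square per degree of freedom 4.84 and 5.21 at day 2). On simulated data (14963 genes tested, 9 false calls) genes changed 2-fold or more were all found. These were drawn only from genes well above the minimum count.

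Members, the 30 gene lists (439 of 445 genes matched, 1 further gene is not reported here) and tests were chosen with earlier results of these data known. Named genes were Cdh1, Dot1l and the 4 factors, the 10 largest increases and decreases among calls whose log2 CPM averaged 3 or more over the compared libraries, with separate groups and without ESC-specific genes, and up to 3 called members per list. Other genes named illustrate their lists and were chosen with their values seen. Genes most like Cdh1 were not sought, since its levels separate by virus. Cdh1 met the rule for ESC-specific genes and was set aside from them. Emr1, Ctgf, Cyr61, Sepx1 and Sfpi1 are older symbols. Alternatives were DESeq2 1.42.0, 2 other scalings, no filter, other sets of libraries, a replicate block, limma 3.58.1 on log2(TPM + 1), each library left out, and the ESC-specific genes left out or the ESC share subtracted. A broad list of 68 leukocyte genes, and leaving it out, were added after seeing the data. Promoters are from RefSeq (GRCm38.p6), not the build of the notes.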

Additional observations from a re-analysis of the deposited data

Results flagged for a closer look

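The effect of the Cdh1 virus differed between day 2 and MEFs, by the test of the difference itself, for 27 genes. Values are log2 effects at day 2 minus those in MEFs. Of the genes named above or on the lists, Cdh1 differed by -4.05, from baselines of 5.20 and 0.449 CPM. Interferon genes differed by -3.99 (Cxcl10), -2.47 (Ifit1), -2.18 (Isg15), -1.67 (Oasl2), -1.60 (Ifit3) and -1.23 (Usp18). The chemokine gene Ccl2, which fell at day 2 and rose in MEFs, differed by -0.71. The macrophage genes Lyz2 and Ctss, which fell in both, differed by -0.81 and -0.62. Igfbp5, at 10.7 CPM with the empty virus at day 2 and 1130 CPM in MEFs, differed by 0.55.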

How the results depend on the processing

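The day 2 comparison, with 135 called genes, gave 208 in a fit of the 4 libraries alone and 79 with limma on log2(TPM + 1), of which 74 were among the 135. It gave between 63 and 74 when 1 library was left out, 37 without the broad leukocyte list and 29 without that list and the ESC-specific genes; both of these were added after seeing the data. DESeq2 called 121, no low-count filter 188, and the other scalings 141 and 143. For the contrast with the inhibitor, 80 became 134 with no low-count filter, 45 in a fit of the 4 libraries alone, 42 to 155 with 1 library left out (155 without replicate 1 of the inhibitor with the Cdh1 virus), 21 without the leukocyte list and 14 without both lists. For MEFs, 171 became 87 to 133 with 1 library left out. The difference between day 2 with and without inhibitor held 0 calls, 17 with DESeq2, 5 with no low-count filter and 0 to 2 with 1 library left out. The difference from MEFs held 27, 65 with no low-count filter and 13 to 26 with 1 library left out. The median share of the ESC level over 10 genes of at least 100 CPM in ESCs was 0.2001% and 0.187% in replicates 1 and 2 with the empty virus and 0.00148% and 0.0130% with the Cdh1 virus. Over 25 genes also absent from day 2 of the timecourse it was 0.235% and 0.150% with the empty virus and 0 in both Cdh1-virus libraries. Same-numbered libraries of the groups correlated between -0.27 and 0.24 in their deviations, so the numbers do not pair them in one direction. A replicate block gave 124 calls at day 2. There the empty virus without inhibitor correlated at 0.23 with the Cdh1 virus with inhibitor. The Cdh1 virus without inhibitor correlated at 0.24 with the empty virus with inhibitor, and the remaining day 2 pairs lay between -0.27 and -0.076. Whether a batch runs across the numbers was not tested. No called named gene changed direction. Sox2 and Pou5f1, which were not called, did: Sox2 gave 0.04 and Pou5f1 -0.01 without empty-virus replicate 1, and Pou5f1 -0.01 without Cdh1-virus replicate 2. Low counts limit what can be said of the stem cell transcripts.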
